A study of Mus musculus with 5 samples.

Results

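CpG methylation (mC) was examined at the promoters of 55 germline and meiotic genes, a list of named genes that are used in germ cells and mostly silent in somatic cells, all of them autosomal. Of these genes, 33 could be measured, among 14060 promoters measured in the series. The castaneus allele was covered for 30 members (of 12300 promoters) and the domesticus allele for 29 (of 11769). Both alleles were covered for 26, and 22 members could not be measured on either. Not measured were Syce1, Syce3, Smc1b, Rec8, Hormad2, Dmc1, Msh5, Mei1, Tdrd1, Tdrd7, Piwil1 and Asz1. The others without coverage were Mov10l1, Gtsf1, Stk31, Dnd1, Nanos3, Dmrt1, Dppa3, Brdt, Dpep3 and Tuba3a. The cells, female embryonic fibroblasts of the mouse (MEFs), were taken at E13.5, per the labels from 129/C57 dams crossed to CAST sires, so the domesticus allele is maternal and the castaneus allele paternal. All carried the Xist-deltaA deletion on 1 of their X chromosomes and were transduced with a retroviral hairpin and selected in puromycin. The 3 Female control libraries were Setdb1+/+ with a nonsilencing hairpin. The 2 Setdb1 depleted libraries were Setdb1+/gt, heterozygous for a gene trap, with a hairpin against Setdb1, so the effects of genotype and hairpin cannot be told apart. Setdb1 is a histone H3 lysine 9 methyltransferase. The comparison asks whether its depletion alters promoter methylation at these genes, on each parental allele. The labels do not say whether the libraries of a group came from separate embryos or cultures, so p-values measure only the spread between these libraries. No RNA values were analysed here, so neither the depletion nor the silence of the genes was checked.

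Germline genes often have CpG-rich promoters, and are unusual in that many of these are methylated at implantation and stay methylated in somatic cells. The non-canonical Polycomb complex PRC1.6, which includes E2F6, MGA and MAX, is known to bring silencing to such promoters through E2F-like and E-box sequences, and H3K9 methyltransferases and DNA methyltransferases also take part. SETDB1 is known in other cells for silencing retroviral elements and some germline genes.

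Methylation was read by enhanced reduced representation bisulphite sequencing, which sequences mostly CpG-rich MspI fragments, and the libraries had between 9440874 and 10558931 CpG calls on each allele. The level of a promoter, % mC, was the methylated share of all calls at CpG positions within 1 kb of any annotated transcript start, using positions with at least 10 calls in every library on that allele. Members had 21 to 2127 calls per library and allele. Of their 370 measured positions, 141 lay in introns, 100 in coding sequence, 68 outside the gene, 46 in untranslated regions and 15 in other exons. Control and depleted libraries are given below in the order of their replicate numbers, as control replicates 1, 2 and 3 and depleted replicates 1 and 2. Intervals for single levels are not given, since calls in 1 read are not independent. The identity of the tissue could be checked only through methylation. Of 4 fibroblast genes covered, Vim and Pdgfra had at most 0.506% mC in any library, while Thy1 had 33.2 to 42.5% on the castaneus and 47.8 to 55.04% on the domesticus allele and Col1a1, at 1 castaneus position, 31.8 to 52.5%. Markers of other cell types were likewise low or middling, with at most 5.85% in any library at the 3 neural, both epithelial genes and the endothelial gene Kdr, 34.5 to 53.2% at the endothelial gene Pecam1 and 31.1 to 39.1% at the blood gene Vav1, so promoter mC did not set fibroblasts apart. The allele split was checked at imprinted genes, whose start windows need not hold the imprinted CpGs. Plagl1, Impact and Inpp5f had at most 12.4% mC on the domesticus allele and could not serve for this. Zrsr1, methylated on the maternal allele, had 93.1 to 97.4% domesticus and 0.784 to 4.62% castaneus mC. Mcts2, likewise maternally methylated, had at least 93.3% domesticus and at most 0.9% castaneus mC in 4 libraries, but 0% and 37.9% in control replicate 1, so the allele values of that library went against parental origin at this promoter.

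Stretches with CpGs behind the main results are shown first, 5′ to 3′ on the strand of the gene (GRCm38, the build of the deposited calls), with the measured CpGs in capitals. They leave out annotated untranslated regions and hold most or all of the measured CpGs of each gene. The second stretch of Sycp3 holds the 3 CpGs measured on both alleles. Sycp3 had a large difference between the groups on both alleles, Rbmxl2 lower means on both and Fkbp6 the allele difference past the threshold. Slc25a31 had high mC outside the gene, while Tdrd5 had almost no mC.
Sycp3, chr10:88459671-88459947, plus strand: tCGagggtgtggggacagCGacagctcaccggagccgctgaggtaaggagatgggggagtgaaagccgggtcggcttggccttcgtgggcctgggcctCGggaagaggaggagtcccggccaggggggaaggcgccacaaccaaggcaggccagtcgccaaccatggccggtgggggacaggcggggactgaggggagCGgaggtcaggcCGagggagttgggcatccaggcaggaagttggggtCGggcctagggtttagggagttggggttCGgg
Sycp3, chr10:88460033-88460076, plus strand: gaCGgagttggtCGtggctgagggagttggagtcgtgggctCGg
Rbmxl2, chr7:107209995-107210045, plus strand: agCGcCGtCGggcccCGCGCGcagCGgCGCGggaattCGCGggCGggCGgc
Fkbp6, chr5:135349773-135349988, minus strand: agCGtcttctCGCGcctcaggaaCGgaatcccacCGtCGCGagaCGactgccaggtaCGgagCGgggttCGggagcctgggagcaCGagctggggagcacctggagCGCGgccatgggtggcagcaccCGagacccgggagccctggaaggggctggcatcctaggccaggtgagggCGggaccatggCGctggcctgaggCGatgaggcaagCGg
Slc25a31, chr3:40708697-40708729, plus strand: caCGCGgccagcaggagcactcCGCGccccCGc
Tdrd5, chr1:156303678-156303722, minus strand: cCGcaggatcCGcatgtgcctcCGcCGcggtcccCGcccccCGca

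A further feature described was the E-box CACGTG. Whether the choice of members was independent of it is not known, so its share among them is no separate support. In RefSeq promoter windows of 300 bases (250 before to 50 after the start, GRCm38.p6), the 6 letters CACGTG, which read the same on both strands, occurred in 18 of 46 members with a window (39.1%), against 8.09% of 27018 genes and 12.9% of those with CpG-rich windows (at least 50% GC and a ratio of observed to expected CpG of at least 0.6). A window was CpG-rich in 32 of 46 members (69.6%) and in 36.1% of all genes. The E2F-like letters GGCGGGA, on either strand, occurred in 13 members (28.3%), against 12.7% of all genes and 28.3% of CpG-rich ones. Among CpG-rich windows alone, GGCGGGA was in 12 of 32 members (37.5%, against 28.3%) and CACGTG in 16 of 32 (50%, against 12.9%). The letters are a description of the windows and do not show binding. Stretches of 50 bases around the E-box are shown with it in capitals.
Sycp3, chr10:88459501-88459550, plus strand: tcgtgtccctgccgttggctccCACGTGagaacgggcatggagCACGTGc
Sycp1, chr3:102936167-102936216, minus strand: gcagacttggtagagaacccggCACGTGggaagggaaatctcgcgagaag
Slc25a31, chr3:40708756-40708805, plus strand: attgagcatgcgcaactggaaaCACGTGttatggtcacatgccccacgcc
Hormad1, chr3:95559598-95559647, plus strand: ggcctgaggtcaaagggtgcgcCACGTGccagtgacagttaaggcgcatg
Mael, chr1:166238940-166238989, minus strand: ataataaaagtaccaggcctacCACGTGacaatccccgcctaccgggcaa
Stag3, chr5:138280317-138280366, plus strand: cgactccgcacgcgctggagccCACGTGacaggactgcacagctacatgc
Methylated and unmethylated promoters both held it, though mC was taken within 1 kb of any annotated start and not only inside these windows. On the castaneus allele, 8 of the 13 covered members with the E-box had mC of 70% or more and 3 had less than 20%, and on the domesticus allele 5 and 4 of 11. The median castaneus mC was 77.0% in the 13 with it and 82.1% in the 12 without it.

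Most members were highly methylated, unlike most promoters. The median over members of the mean of the 5 libraries was 76.7% mC on the castaneus and 72.6% on the domesticus allele, against 0.563% and 0.569% over all promoters. At least 70% mC was found in 18 of 30 members (60.0%) on the castaneus allele, against 13.51% of all promoters, and in 15 of 29 (51.7%) on the domesticus allele, against 1589 of 11769. Under 20% were 8 and 10 members. All members are protein-coding genes, and of the promoters of such genes 7.72% castaneus and 7.55% domesticus had at least 70% mC. Where the measured CpGs of all promoters lie was not counted, so the background is not matched for position. The high share held among genes with a CpG-rich window as well. Of these, 13 of 20 castaneus members had at least 70% mC, against 4.45% of all such genes. On the domesticus allele 9 of 19 members did, against 4.33%. Their mC was taken within 1 kb of any annotated start, so it need not be that of the window. At Hormad1, for instance, the castaneus positions lay from -424 to -337 bp from the start, outside the window. These shares are descriptions without a test, because germline genes are known for this pattern.

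**Figure D1:**
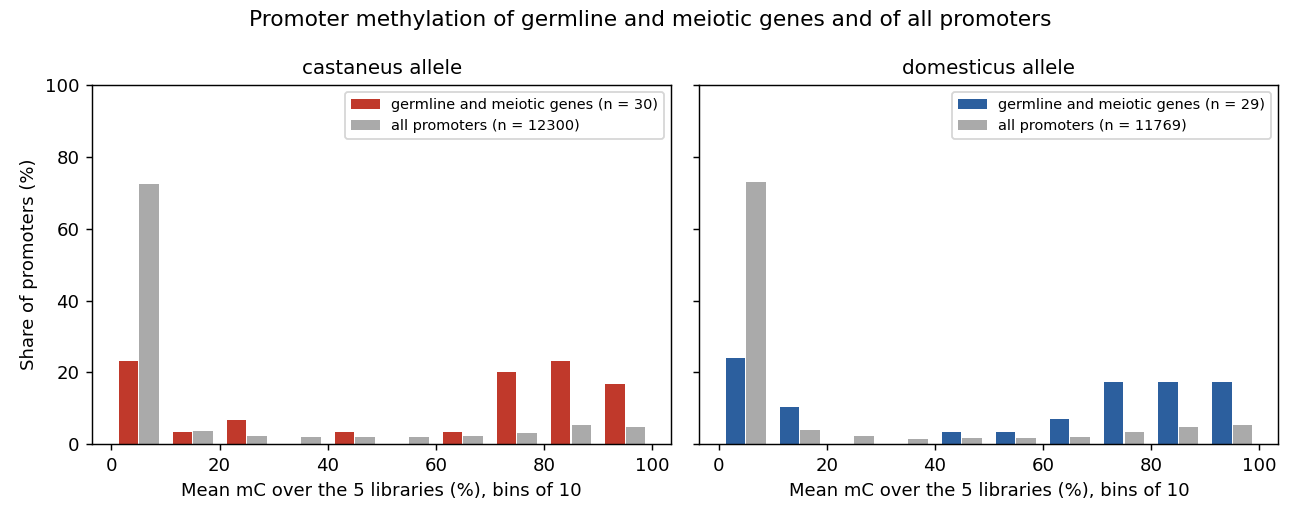
Share of promoters (y axis, %) in each bin of 10 percentage points of mean mC over the 5 libraries (x axis), for the covered germline and meiotic genes (coloured bars) and all promoters (grey bars) on each allele. Members are split between low and high bins, with 18 of 30 castaneus and 15 of 29 domesticus members at 70% or more, while most promoters lie in the lowest bin.

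The members with the highest mC were Tex14, Rpl10l, Tuba3b and Tex19.1. The group of other testis genes had a median of 92.1% on both alleles, and the genes of the piRNA pathway, which silences transposons in germ cells, ranged from 0 to 94.4% on the castaneus allele with medians of 72.6% and 67.2%. Tex14, needed for intercellular bridges between germ cells, had 97.8, 92.0 and 95.5% castaneus mC in controls and 96.0 and 96.4% in depleted libraries. Its domesticus mC was 92.3, 95.9 and 93.9% in controls and 93.3 and 89.5% in depleted libraries. The groups overlapped on both alleles, and its positions are shared with Rad51c, a repair gene starting beside it. Rpl10l, a testis-expressed retrocopy of a ribosomal protein gene, had 97.7, 95.3 and 93.6% castaneus mC in controls and 95.5 and 92.9% in depleted libraries. On the domesticus allele it had 87.0, 95.6 and 96.5%, then 91.0 and 95.6%. It too did not separate the groups. Tex19.1, which acts in transposon control in germ cells, had 83.3, 98.8 and 98.7% castaneus mC in controls and 95.0 and 96.1% in depleted libraries. Its domesticus values were 94.9, 91.4 and 93.9%, then 88.0 and 89.8%, so on that allele alone both depleted libraries lay below all controls. Tuba3b, a testis alpha-tubulin, was covered on the domesticus allele, with 91.4, 90.8 and 96.7% in controls and 90 and 91.6% in depleted libraries. Its near-identical paralog Tuba3a was not covered on either allele, and Rpl10l has a parent gene, so reads of such copies are uncertain. All 5 covered members of the other testis genes had at least 83.7% mean mC on each allele measured.

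At the other end, several members with a known part in meiosis had almost no mC. Tdrd5, a piRNA pathway protein, had 0% castaneus mC in all 5 libraries, in 189 to 306 calls. If calls were independent, this would allow at most 1.59% in the shallowest library. Domesticus mC of Tdrd5 was 0, 1.51 and 0% in controls and 0 and 1.5% in depleted libraries. Ythdc2, an RNA helicase needed for meiotic entry, had 0% domesticus mC in all libraries. It had 107 to 196 calls (at most 2.80% in the shallowest on the same terms). Calls in 1 read are not independent, so these limits are too low, and they cover counting error only. Tdrd5 had 24 to 38 castaneus reads of at least 4 calls per library. In control replicates 1 and 2, 3.12 and 4.17% of them mixed methylated and unmethylated calls, positions under the call minimum included. Stag3, the meiotic cohesin subunit, had 1.44, 0.559 and 0.13% domesticus mC in controls and 0 and 0.221% in depleted libraries. Its positions are shared with Gpc2 and Gm43720, genes starting beside it, so they are not those of a germline promoter alone. The same holds for Tdrd5 (4930518J20Rik), Zcwpw1 (Mepce) and Piwil2 (Gm24890). Prdm9, the methyltransferase that sets recombination hotspots, had 0, 0.557 and 0% castaneus mC in controls and 0.332 and 0% in depleted libraries. Meiob, a single-strand DNA-binding protein of recombination, had 1.59, 0.865 and 1.83%, then 1.42 and 0.965%, on the castaneus allele. None of these separated the groups on the allele named.

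**Figure D2:**
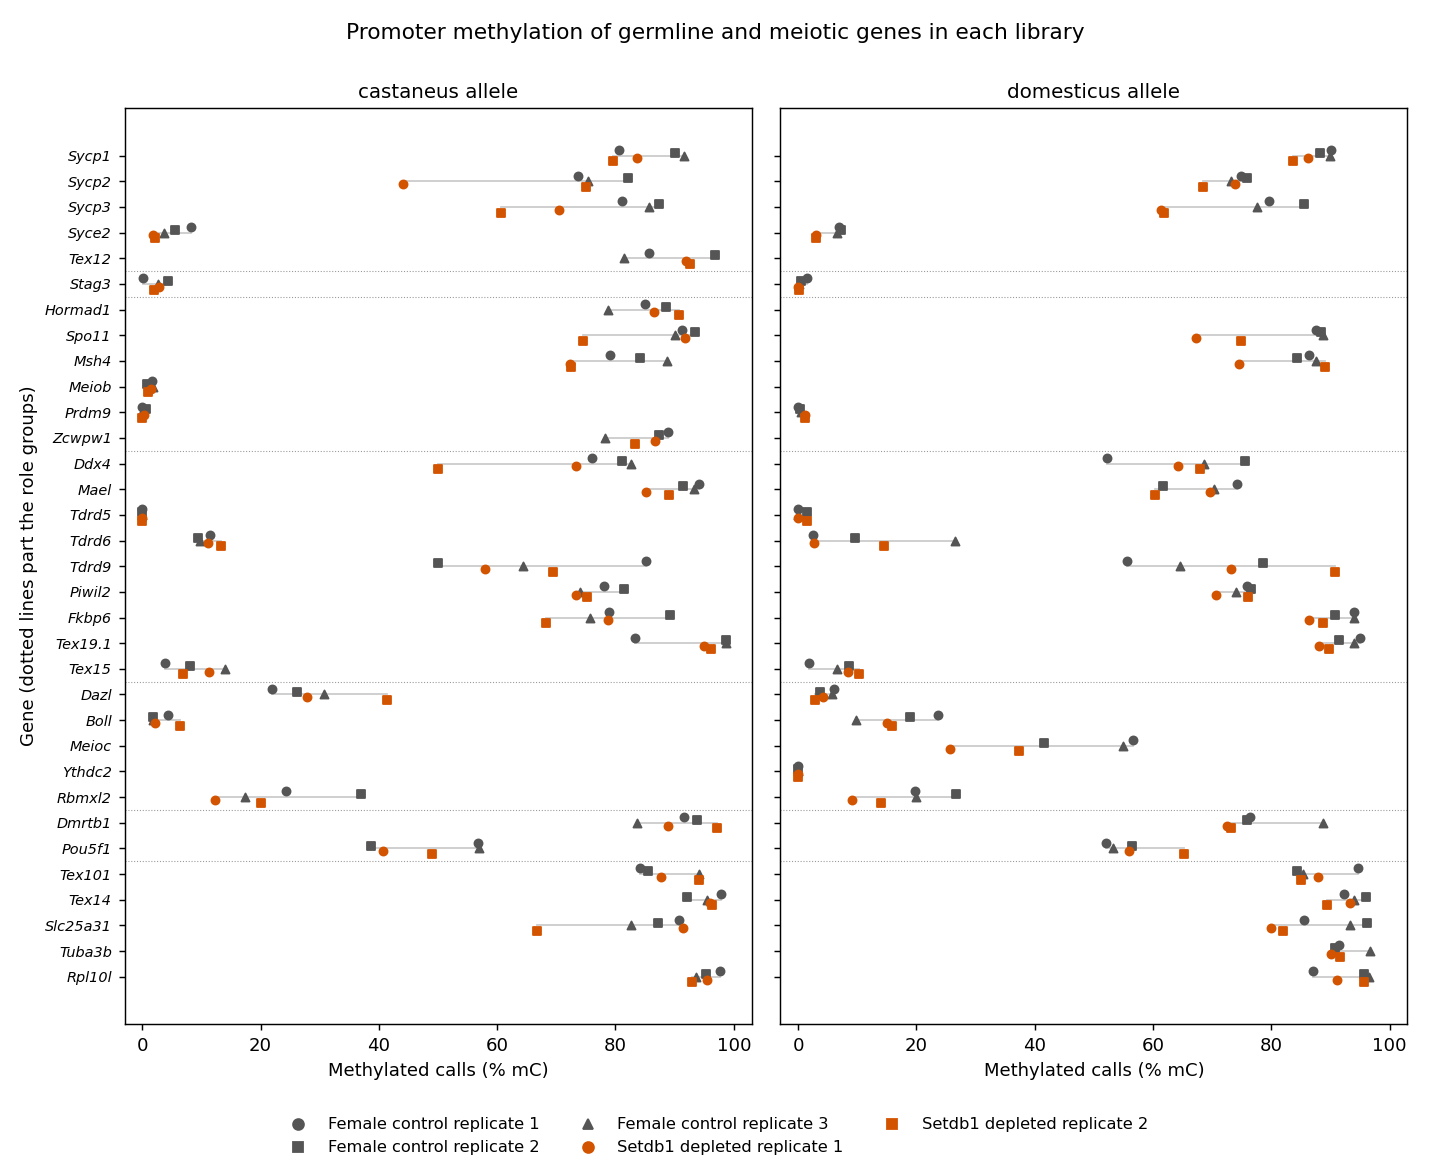
Promoter mC (x axis, %) of each covered germline or meiotic gene (y axis, by role group) in the 3 Female control libraries (grey) and the 2 Setdb1 depleted libraries (orange), on the castaneus (left) and domesticus (right) allele. Grey lines span the 5 libraries, and at Sycp3 both depleted libraries lie below every control on both alleles.

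After Setdb1 depletion, no member passed the test on either allele alone. Differences leaned to lower mC on the domesticus allele, while on the castaneus allele the share of lower means was nearer that of all promoters. In the quasi-binomial model with limma moderation, 0 of 30 members on the castaneus allele had a Benjamini-Hochberg adjusted p under 0.05, where 0.0325% of all promoters did, and 0 of 29 on the domesticus allele, where 0.0255% did. At an unadjusted quasi-binomial p under 0.05 there were 4 castaneus members (13.3%, against 2.96% of all promoters) and 6 domesticus members (20.7%, against 3.29%). All of them were lower. Of all promoters, 76.1% castaneus and 77.1% domesticus had under 20% mC, against 26.7% and 34.5% of members. The backgrounds are thus not matched for level, and these p-value shares were not counted among promoters with at least 20% mC. The members were chosen with earlier results of these data known. Their shares beside those of all promoters, here and below, are thus descriptions and no separate support. limma on log ratios of the calls gave 0 past the adjusted threshold on both alleles, with 2 of 30 and 4 of 29 members at an unadjusted p under 0.05, against 5.72% and 5.68% of all promoters. Fisher's exact test on summed calls, which ignores how libraries of a group vary, called 11 and 10 members, against 8.86% and 8.4% of all promoters. These were not all lower, since Dazl on the castaneus and Tdrd9 on the domesticus allele were higher in depleted libraries. The mean was lower in 17 of 30 members on the castaneus and 21 of 29 on the domesticus allele, against 48.4% and 49.3% of all promoters. It was higher in 12 and 7 members, against 5153 of 12300 and 4811 of 11769 promoters. The rest, 1192 and 1154 promoters among them, had no difference, which lowers the background shares. When each library was left out in turn, 13 of these 17 and 15 of these 21 stayed lower in every removal. Both depleted libraries lay below all 3 controls at 5 castaneus members (background 8.04%) and 10 domesticus members (8.21%), and above them at 0 (7.63%) and 1 (7.43%). Among members with at least 20% mC, both depleted libraries were below all controls at 4 of 22 on the castaneus (background 11.7%) and 8 of 19 on the domesticus allele (10.6%), and above them at 0 on both (9.34% and 9.82%). The only member with both depleted libraries above all controls was Prdm9, with 0, 0.360 and 0.468% domesticus mC in controls and 1.21 and 1.10% in depleted libraries. The median difference was -0.778 points on the castaneus and -2.62 points on the domesticus allele, against 0 over all promoters on both. Among members with at least 20% mC it was -4.68 and -3.72 points, against 0.139 and -0.0735 points over all such promoters. The castaneus median was -1.52, -0.985 and -2.57 points without control replicate 1, 2 or 3, and -1.65 and -0.107 points without depleted replicate 1 or 2, so its size depended on single libraries. Without control replicate 1, Sycp3 and Rbmxl2 passed the adjusted threshold on the domesticus allele.

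**Figure D3:**
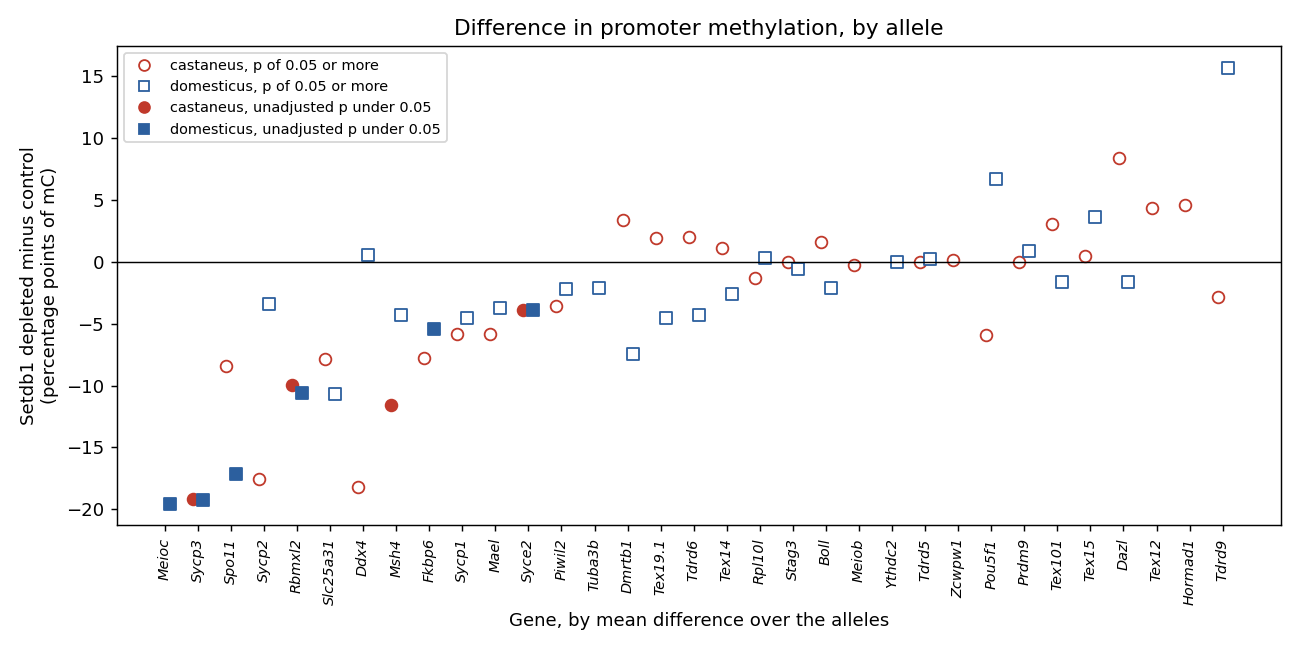
Depleted minus control mean of promoter mC (y axis, percentage points) for each covered member (x axis, ordered by the mean over alleles), as circles for castaneus and squares for domesticus. Filled symbols have an unadjusted p under 0.05, and all of them lie below 0.

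Among genes of the synaptonemal complex, which joins homologous chromosomes, Sycp3 stood out on both alleles. Sycp3 encodes a lateral element protein. On the castaneus allele it had 81.1, 87.3 and 85.6% mC in controls and 70.5 and 60.6% in depleted libraries (3 positions, 122 to 165 calls). Both depleted libraries lay below all controls, by a mean difference of -19.1 points between 84.7% ± 3.20 (SD, n = 3) and 65.5% ± 6.99 (SD, n = 2). Its adjusted p was 1 in the quasi-binomial model. On the domesticus allele it had 79.7, 85.5 and 77.5% in controls and 61.3 and 61.9% in depleted libraries (12 positions, 477 to 632 calls). The groups again did not overlap, and the difference was -19.3 points, between 80.9% ± 4.10 (SD, n = 3) and 61.6% ± 0.381 (SD, n = 2). The quasi-binomial p was 5.79e-05 before and 0.136 after adjustment. The mean was lower at 12 of 12 domesticus positions, 8 of them without overlap, and at 3 of 3 castaneus positions, 2 of them without overlap. Neighbouring positions share reads, and some are the 2 strands of 1 CpG, so they are not separate observations. The share of such positions over all promoters was not counted. The positions ran from 9 to 410 bp from the nearest annotated start, and lay in an intron and coding sequence.

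When both alleles were summed, a choice made after seeing the data, Sycp3 fell by 19.5 points, from 80.03, 85.9 and 79.4% in controls to 62.9 and 61.6% in depleted libraries, with an adjusted p of 0.0333 in the quasi-binomial model. It was then the only member past the threshold of 34 covered, where 0.0627% of 14349 promoters were. In the same model 10 of the 34 had an unadjusted p under 0.05, against 3.87% of promoters, a background not matched for level. Both depleted libraries were below all controls at 11 of the 34 (background 9.83%) and above them at 1 (8.35%). Of the 23 with at least 20% mC, 9 lay below (background 12%) and 0 above (9.91%). The call did not hold without control replicate 2 (adjusted p = 0.0608), depleted replicate 1 (0.202) or depleted replicate 2 (0.310), though the difference stayed between -17.5 and -20.7 points over all removals of 1 library. The castaneus share of Sycp3 calls was 26.6 to 27.1% in controls and 19.8 and 21.1% in depleted libraries, and its part in the difference was not tested. The difference was of like size within each allele.

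**Figure D4:**
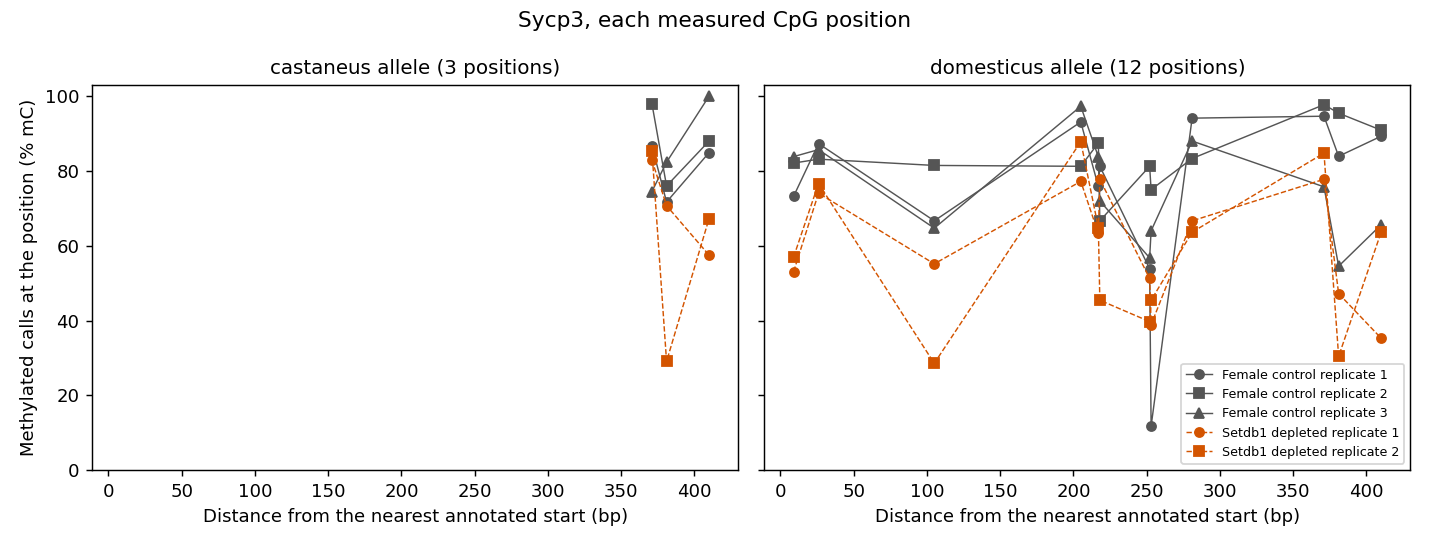
mC (y axis, %) at each measured CpG position of Sycp3 against its distance from the nearest annotated start (x axis, bp), for the 3 control (grey, solid) and 2 depleted (orange, dashed) libraries on each allele. Lines join the positions of 1 library, and single positions scatter widely. Some had as few as 11 calls, and whether this accounts for the scatter was not tested.

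The other genes of the complex varied. Syce2, a central element protein, had little mC. On the castaneus allele it had 8.32, 5.54 and 3.6% in controls and 1.78 and 2.09% in depleted libraries (difference -3.88 points, quasi-binomial p = 0.00263 before and 0.958 after adjustment). On the domesticus allele it had 6.95, 7.32 and 6.49%, then 2.94 and 3.08% (difference -3.91 points, quasi-binomial p = 0.000536 before and 0.451 after adjustment). The groups did not overlap on either allele, and these values rested on 1494 to 1742 calls per library. Sycp2, a lateral element protein, had 73.7, 82.1 and 75.4% castaneus mC in controls and 44.1 and 75.0% in depleted libraries. The castaneus groups overlapped, and its difference of -17.5 points was -2.08 points when depleted replicate 1 was left out. Domesticus mC of Sycp2 averaged 74.6% ± 1.37 (SD, n = 3) in controls against 71.2% ± 3.77 (SD, n = 2) after depletion. Sycp1, the transverse filament protein, had mean differences of -5.82 points on the castaneus and -4.52 points on the domesticus allele, the groups being separate on the latter. The castaneus difference ranged from -9.21 points without control replicate 1 to -3.76 points without control replicate 3. Tex12, a central element protein, was covered by 1 castaneus position and had 89.8% mean mC, with overlapping groups.

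Among recombination genes, Msh4 and Spo11 had lower means on both alleles, and the groups were separate on 1 allele of each. Msh4, a MutS homolog of crossover formation, had 79.0, 84.2 and 88.7% castaneus mC in controls and 72.3 and 72.5% in depleted libraries. The difference was -11.6 points (quasi-binomial p = 0.00741 before and 1 after adjustment). On the domesticus allele, mostly at other CpGs, it was -4.29 points. Depleted replicate 2, at 89.1%, lay above all controls there, so that the sign turned (2.99 points) when depleted replicate 1 was left out. Spo11, the enzyme that makes meiotic double-strand breaks, had 87.5, 88.4 and 88.7% domesticus mC in controls and 67.3 and 74.8% in depleted libraries. This difference of -17.1 points had a quasi-binomial p of 0.0126 before and 1 after adjustment, and both depleted libraries were below the controls. On the castaneus allele Spo11 had 91.2, 93.5 and 90%, then 91.7 and 74.5%, so only depleted replicate 2 was low there. Its measured positions lie inside the gene, near the start of a shorter transcript. Hormad1, a chromosome axis protein, and Zcwpw1, a histone reader, were covered on the castaneus allele only, with overlapping groups. The difference of Hormad1 was 4.54 points, and 1.87 points without control replicate 3, and that of Zcwpw1 was 0.164 points and turned to -3.10 points without control replicate 3 and -1.60 points without depleted replicate 1.

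In the piRNA pathway and germ granule group, castaneus means were lower in 5 of 9 and domesticus means in 5 of 9 covered members. Ddx4, the germ cell RNA helicase VASA, had 76.0, 81.1 and 82.6% castaneus mC in controls and 73.3 and 50% in depleted libraries (66 to 111 calls). The difference of -18.2 points came with separate groups but a quasi-binomial p of 0.0838 before adjustment, and its size rested on depleted replicate 2. Leaving that library out gave -6.56 points, and leaving out depleted replicate 1 gave -29.9 points. On the domesticus allele the same CpGs were read, on the opposite strand. There Ddx4 had 52.2, 75.6 and 68.7%, then 64.3 and 67.9%, a difference of 0.583 points, and the groups overlapped. Mael, a germ granule protein, had 94.2, 91.4 and 93.3% castaneus mC in controls and 85.2 and 89.0% in depleted libraries, without overlap, and overlapping groups on the domesticus allele. Tdrd9, a helicase of the pathway, had 55.7, 78.6 and 64.6% domesticus mC in controls and 73.2 and 90.8% in depleted libraries. Its difference of 15.7 points was the largest in the direction of higher mC, but the groups overlapped and only 2 positions were measured. It was 6.88 points without depleted replicate 2. Fkbp6, a co-chaperone of the pathway, had 93.9, 90.8 and 94.0% domesticus mC in controls and 86.3 and 88.7% in depleted libraries. The difference was -5.40 points without overlap (quasi-binomial p = 0.00498 before and 1 after adjustment). Castaneus mC of Fkbp6 was 78.8, 89.2 and 75.8%, then 78.8 and 68.2%, with overlap.

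RNA-binding proteins and factors of meiotic entry had low or middle mC. Rbmxl2, an intronless germ cell RNA-binding gene measured in its coding sequence, had 19.7, 26.6 and 19.9% domesticus mC in controls and 9.07 and 14.0% in depleted libraries (26 positions, 1533 to 2127 calls). The groups did not overlap, and the difference was -10.6 points, between 22.1% ± 3.96 (SD, n = 3) and 11.5% ± 3.46 (SD, n = 2), with a quasi-binomial p of 0.000142 before and 0.279 after adjustment. On the castaneus allele it had 24.3, 36.9 and 17.3%, then 12.3 and 20.1%. The castaneus groups overlapped, and the difference of -9.98 points shrank to -4.61 points when control replicate 2 was left out and to -6.03 points when depleted replicate 1 was. Its quasi-binomial p was 0.0242 before and 1 after adjustment. It is a retrocopy with related genes elsewhere, and whether reads of these were counted was not tested. Meioc, needed to keep germ cells in meiotic prophase, was covered on the domesticus allele only. It had 56.6, 41.6 and 54.9% in controls and 25.7 and 37.4% in depleted libraries. Both depleted libraries were lower, by a mean of -19.5 points (quasi-binomial p = 0.00880 before and 1 after adjustment, 143 to 253 calls). The castaneus share of its calls was 0 to 22.3% over the libraries, and its part in the difference was not tested.

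Dazl, an RNA-binding protein at the start of germ cell development, had 22, 26.1 and 30.7% castaneus mC in controls and 27.8 and 41.4% in depleted libraries. Only depleted replicate 2 was above all controls, and the difference was 8.36 points (1.54 without that library). With each of the 13 positions counted alike, whatever its calls, the values were 30.2, 27.99 and 29.0%, then 28.03 and 32.8%, a difference of 1.35 points. The 4 positions farthest upstream had mC of 60% or more and the other 9 at most 20%, and the libraries differed in the share of calls each stretch gave. Its domesticus mC was 6.10, 3.69 and 5.65%, then 4.17 and 2.89%, at positions that were not those of the castaneus allele. Positions are counted by strand, so some may be the other strand of the same CpG. Dazl was thus left out of the comparison of alleles. Boll, of the same family, had mean differences of 1.62 points on the castaneus and -2.10 points on the domesticus allele, both with overlap. Their signs turned with single libraries, to -0.424 points on the castaneus allele without depleted replicate 2 and 1.00 points on the domesticus allele without control replicate 1, and leaving out control replicate 3 gave -5.95 points on the domesticus allele. With positions counted alike it was -5.61 points there.

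Of the transcription factors, Pou5f1 and Dmrtb1 were covered. Pou5f1, the pluripotency factor OCT4, was among the few members with middle mC, with 52.1, 56.5 and 53.2% on the domesticus allele in controls and 55.9 and 65.3% in depleted libraries. Castaneus values were 56.8, 38.8 and 56.9%, then 40.8 and 49.0%, so the differences of 6.68 and -5.92 points had opposite signs with overlap on both alleles, and the former was 2.00 points without depleted replicate 2. The castaneus difference ranged from -11.95 points without control replicate 2 to -1.80 points without depleted replicate 1. Dmrtb1, a regulator of the switch from mitosis to meiosis in the testis, had 76.3, 75.8 and 88.7% domesticus mC in controls and 72.5 and 73.2% in depleted libraries. The groups did not overlap. The difference of means was -7.43 points, and -3.21 points without control replicate 3. On the castaneus allele, covered by 2 positions, its mean mC was 91.0%. It had 91.5, 93.9 and 83.6% there in controls and 88.9 and 97.2% in depleted libraries, so the groups overlapped. Among the other testis genes, Slc25a31, an ADP/ATP carrier of sperm, had 85.5, 96.1 and 93.3% domesticus mC in controls and 80 and 81.9% in depleted libraries, a difference of -10.7 points without overlap (quasi-binomial p = 0.137 before adjustment). Castaneus mC of Slc25a31 was 90.7, 87.3 and 82.6%, then 91.3 and 66.7%, so only depleted replicate 2 was low.

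Single reads with at least 4 calls gave another view of the same calls. At Rbmxl2 on the domesticus allele, no read was fully methylated, and fully unmethylated reads made up 25.0, 8.09 and 20.2% in controls and 46.1 and 27.3% in depleted libraries. The groups did not overlap. Castaneus reads of Rbmxl2, 14 to 37 per library, were fully unmethylated in 0, 10.7 and 22.2%, then 35.1 and 14.3%, with overlap. At Syce2 the mean share of fully unmethylated domesticus reads was 73.0% in controls and 90.1% in depleted libraries, and that of castaneus reads 71.1% and 87.1%. At Sycp1 fully methylated reads made up a mean of 60.7% in controls and 35.3% in depleted libraries on the domesticus allele, and 55.9% and 30.5% on the castaneus allele. Lower mC went with more fully unmethylated reads at the weakly methylated Rbmxl2 and Syce2, and with fewer fully methylated reads at Sycp1. It was not so at every member. At Msh4 on the domesticus allele, the mean share of fully methylated reads was 33.2% in controls and 39.7% in depleted libraries, although mean mC was lower. Sycp3 did not have 10 such reads in every library on either allele and could not be included. These shares come from the same calls as the levels and were not tested. Among members with 20 to 80% mC, the median share of reads mixing methylated and unmethylated calls was 66.1% on the castaneus allele (5 members). It was 70.2% on the domesticus allele (4 members), against 56.2% and 43.9% over all such promoters. Fully unmethylated reads had a median share of 4.87% and 3.34% in these members, against 29.5% and 34.9%. The background was thus not matched for level within this range, nor for calls per read.

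The alleles were compared at 21 members with positions covered on both. The median absolute difference was 3.45 points, and castaneus was higher in 9 members and lower in 12. Fkbp6 was the only member past the threshold, where 3.97% of 8611 promoters were (1.39% with castaneus lower), or 11.3% of those with at least 20% mC. At an unadjusted p under 0.05 were Fkbp6 and Stag3, against 9.58% of promoters. At its 11 shared positions domesticus mC was 93.4, 90.7 and 94.1% in controls and 88.3 and 85.5% in depleted libraries, while castaneus mC was 80.6, 91.5 and 76.7%, then 81.2 and 69.7%. Castaneus mC was lower in 4 of 5 libraries, control replicate 2 being the exception, and the mean difference was -10.5 points (quasi-binomial model with library as a block, adjusted p = 0.000905). It was -9.88 points without control replicate 1. Without any 1 library the adjusted p was at most 0.0220, and with limma it was 0.319. No member differed by 20 points. The largest difference, -11.6 points at Tdrd9, rested on 1 position and did not pass (adjusted p = 0.802). Whether depletion acted differently on the alleles was tested as an interaction in the same model, and 0 of 21 members and 0 of 8611 promoters had an adjusted p under 0.05. At an unadjusted p under 0.05 there were 0 members and 168 promoters (1.95%), and limma gave 0 as well. Both depleted libraries lay below all controls on both alleles at 2 of the 21 members (Syce2 and Sycp3), against 0.871% of promoters. At the 3 shared positions of Sycp3 the difference was -19.1 points on the castaneus and -26.4 points on the domesticus allele, with an interaction p of 0.581 before adjustment in the quasi-binomial model.

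The split of reads between alleles was uneven at several members. The castaneus share of calls was 20 to 80% in every library at 19 of 33 covered members. It was 10.1 to 18.2% at Rbmxl2, 16.0 to 30.5% at Tdrd9 and 18.4 to 50.7% at Dazl. Its part in the differences was not tested.

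Genes outside the list gave a background. Of 32 genes of the silencing machinery (PRC1.6, DNA methyltransferases, TET enzymes and H3K9 regulators), 22 were covered on the castaneus and 27 on the domesticus allele, with median mC of 0.462% and 0.525%. The quasi-binomial model called 0 of them on either allele. At an unadjusted p under 0.05 were Uhrf1, the recruiter of the maintenance methyltransferase DNMT1, on the castaneus allele (28.8, 25.3 and 18.3% in controls, 34.1 and 43.1% in depleted libraries, 14.5 points) and Dnmt3a and the PRC1.6 subunit Pcgf6 on the domesticus allele (4.18 and 1.31 points), all higher in depleted libraries. Dnmt3a had 9.70, 10.4 and 8.15%, then 16.7 and 10.5%, and Pcgf6 had 0% in all controls, then 2.42 and 0.207%, so both differences rested on depleted replicate 1 and were 1.04 and 0.207 points without it. These were 1 of 22 and 2 of 27 genes, against 2.96% and 3.29% of all promoters. Castaneus mC of Dnmt3a was 14.8, 10.5 and 10.9% in controls and 10.4 and 9.96% in depleted libraries, lower without overlap (-1.85 points, and -0.486 points without control replicate 1). Domesticus mC of Uhrf1 was 9.85, 9.36 and 6.44%, then 16.3 and 6.89%, with overlap. At Setdb1 itself domesticus mC was 0.185, 5.44 and 0.869% in controls and 5.26 and 4.10% in depleted libraries, with overlap. Of 58 further germline genes, 12 and 11 were covered on the castaneus and domesticus allele, with median mC of 57.7% and 10.9%, and 0 were called by the quasi-binomial model. The median difference in this list was -0.119 and -0.328 points, and the mean was lower in 8 of 12 and 8 of 11. Both depleted libraries were below all controls at 1 castaneus and 2 domesticus genes (background 8.04% and 8.21%), and above them at 1 and 1 (background 7.63% and 7.43%), namely Meikin on the castaneus (8.95 points) and Ankrd31 on the domesticus allele (4.88 points). Topaz1, a germ cell gene of male meiosis named after its values were seen, had 80, 77.1 and 80.1% domesticus mC in controls and 71.7 and 65.3% in depleted libraries. Its castaneus mC was 71.8, 70.8 and 71.2%, then 62.6 and 67.3%, so both depleted libraries were lower on both alleles (-10.6 and -6.30 points, the latter -3.96 points without depleted replicate 1).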

How the data were processed

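CpG methylation calls of 3 Female control and 2 Setdb1 depleted libraries of female MEFs were used, grouped by the sample labels. Per the labels and the study's methods, the authors trimmed the reads with Trim Galore, aligned them with Bismark to mm10, split them by parental allele and extracted calls with Bismark's methylation extractor, whose version per the file headers was 0.13.0. CASAVA 1.4 is named in the submitters' processing notes. The deposited values are raw calls, with no normalisation: each line gives the count of 1 call, methylated or unmethylated, at 1 position in 1 read. Whether duplicate reads were removed is not given in the sources used here. Reads without a strain difference are absent from the allele files used, so coverage depends on nearby variants, and the 2 alleles are often read at different positions.

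Calls were summed per position and allele, 98.8% of positions lying at reference CpGs of GRCm38. The 2 strands of a CpG count as separate positions. Promoters were windows of 1000 bp on both sides of GENCODE M21 transcript starts, with positions of at least 10 calls in all 5 libraries. % mC was 100 times methylated over all calls. Depletion was tested on each allele over all promoters by a quasi-binomial logistic model of the summed calls, run in R 4.3.3, its dispersion moderated by limma 3.58.1 with a floor of 1. P-values were adjusted by Benjamini-Hochberg, at a threshold of 0.05. Alleles were compared in the same model with library as a block, with an interaction term for depletion. In an exact permutation of 3 and 2 libraries the smallest p would be 0.1, so none was used. On simulated calls with 200 promoters shifted by 1.5 on the logit scale and an intra-library correlation of 0.01, the model recovered 9.17% on the castaneus (of 12300 promoters) and 7.50% on the domesticus allele (of 11769), 88.3% and 92.3% without such correlation and 0% on both at a correlation of 0.03. limma recovered 0% at each of the 3 correlations. Changes of this size could thus be missed. In the simulated allele comparison it recovered 80.5% of 200 among 4000 promoters, with 37 false calls, 36 of them at promoters under 20% mC, where calls are less reliable. Other steps used Python 3.11.15, numpy 2.4.6, pandas 2.3.3 and matplotlib 3.10.9.

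The members, role groups and other lists were chosen with earlier results of these data known. Values in every library are given for members past the threshold in any comparison and for the 8 with the largest differences on each allele. They are also given on each allele for its 5 highest and 3 lowest in mC, and for alleles differing by 20 points or more. Some others were named after their values were seen. The E-box and E2F-like letters were counted in RefSeq promoter windows, found for 46 of 55 members. Alternatives were the call minimum, the window, starts used, reads passing the sequencer's filter, reference CpGs, strands summed, unweighted means, limma, Fisher's exact test, at least 3 positions, a replicate block and leaving out each library. The sum of both alleles, promoters with a castaneus share of 20 to 80% and replicates 1 and 2 without the block were chosen after seeing the data.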

Additional observations from a re-analysis of the deposited data

How the results depend on the processing

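Counts of members past the threshold moved with few settings. For the depletion on the castaneus allele, 0 members were called in the quasi-binomial model and in every alternative run except Fisher's exact test on summed calls, with 11 (and 1090 of 12300 promoters), and the sum of both alleles, chosen after seeing the data, with 1 (Sycp3, among 9 of 14349 promoters). For the domesticus allele, 0 became 10 with Fisher's exact test (and 989 of 11769 promoters), 1 (Sycp3) with the gene 5′ end only (5 promoters in all) or with both alleles summed, and 0 to 2 when 1 library was left out, the 2 being Sycp3 and Rbmxl2 without control replicate 1, among 12 promoters. With both alleles summed, the count was 0 to 3 when 1 library was left out, the 3 being Rbmxl2, Syce2 and Sycp3 without control replicate 3, among 31 promoters. In the comparison of alleles, 1 member (Fkbp6) became 2 with at least 5 calls (Mael added, 369 promoters in all against 342), 0 with limma (194 promoters) and 1 to 2 when 1 library was left out, Stag3 being added without control replicate 1 (324 promoters). The interaction called 0 members in every alternative run. The median domesticus level of members, 72.6%, was 67.2% with the gene 5′ end only and 68.9 to 72.4% when 1 library was left out. Without depleted replicate 2 the castaneus differences of Slc25a31 and Spo11 turned to 4.48 and 0.115 points, and without depleted replicate 1 they were -20.2 and -17 points. The median differences stayed below 0 in all alternatives run, from -2.57 to -0.107 points on the castaneus and -3.40 to -2.16 points on the domesticus allele.

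Libraries numbered 1 and 2 in both groups were fitted with a replicate block, which called 2 domesticus members (Sycp3 and Rbmxl2, among 20 of all promoters) and 0 castaneus members (0 of all promoters), against 0 and 0 members (2 and 8 promoters) in the same libraries without the block. The correlation of deviations of same-numbered libraries was -0.0851 and 0.0246 on the castaneus and -0.0649 and -0.00554 on the domesticus allele, so the numbers are not shown to pair the libraries. In the domesticus block fit the moderation gave every promoter the same dispersion, 4.77. Without control replicate 1, where Sycp3 and Rbmxl2 also passed, it drew dispersions more to a common value than with all libraries. Its prior degrees of freedom were 28.6 there, against 10.4. The part of this in the calls was not tested. With 3 and 2 libraries, 0 calls do not show that promoters did not change.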
